A study of Homo sapiens with 5 samples.

Results

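Aminoacyl-tRNA synthetases are the enzymes that load each amino acid onto its transfer RNA, and human cells keep a cytosolic set, whose gene symbols mostly end in 1, and a mitochondrial set, whose symbols end in 2. The data described here are the mRNA levels of 35 such genes, 19 cytosolic and 16 mitochondrial, of 60651 genes listed in the files. The genes were chosen by name from the family, with their read counts in the USP17 siRNA libraries set against the controls already known. Their values in that comparison are therefore a description, and the calls given for them are not independent evidence. The list does not cover every synthetase.

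The study asks how the deubiquitinase USP17 acts in colorectal cancer. It transfected COLO 320DM, an established human colorectal adenocarcinoma cell line, with siRNA duplexes and sequenced poly(A)-selected RNA. The USP17 siRNA group held 3 libraries, labelled siIDT, sino4 and siSMPLT. The series speaks of independent duplexes, and the labels do not say whether each of the 3 is a single duplex or a pool. The control siRNA group held 2 libraries, siL2 and siNT, which the series names as non-silencing. The other 3 were assigned to USP17 because only the controls are named. No time after transfection and no duplex sequence is given in the sources used here, and no label states separate cultures, so any spread between libraries may be technical and includes each siRNA's own effects.

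Reads in genes numbered 31704821 to 32259474 in the USP17 siRNA libraries, and 34320214 and 36276143 in siL2 and siNT. The 30 USP17L genes, which encode USP17, had 0 reads in all 5 libraries, so the knockdown could not be checked. Reads on no gene's own strand made up 7.05% to 7.49% of all reads in the USP17 siRNA libraries, against 6.37% and 6.58% in the controls, and the part of this in the results below was not tested. Colon epithelial markers summed to 1651 to 1710 TPM (the authors' level per transcript length) in the USP17 siRNA libraries, against 1963 and 2038 TPM in the controls, mostly from CDX2, which was called lower itself (log2 fold change -0.31), while CDH17, another of them, was called higher (0.88). Of these markers KRT8 and KRT18 were at 70.55 to 108.92 TPM and EPCAM at 2.16 to 3.05 TPM. CDH1 and VIL1 were at or under 0.12 TPM in all libraries. Markers of leukocytes, fibroblasts and endothelium summed to 30.04 to 33.57 TPM, against 29.95 and 35.04 TPM in the controls. The leukocyte marker PTPRC was at 15.47 to 19.99 TPM over the 5 libraries. The fibroblast markers COL1A1 and COL3A1 were at 6.13 to 8.19 TPM. PECAM1 and VWF were at or under 0.22 TPM, and CD3E and DCN were at 0. Neuroendocrine markers summed to 4.76 to 5.77 TPM in the USP17 siRNA libraries, against 3.91 TPM in siL2 and 7.96 TPM in siNT.

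Cytosolic synthetases charge the tRNAs used for most protein synthesis. Several of them sit together in a multi-synthetase complex. Many of their genes belong to the programme of ATF4, a transcription factor whose translation increases when kinases phosphorylate eIF2alpha during amino acid shortage or other stress. ATF4 binds DNA as a dimer with C/EBP proteins at composite elements that resemble TTGCATCA, or TGATGCAA read on the other strand. Mitochondrial synthetases are encoded in the nucleus, imported, and serve the small set of proteins made inside mitochondria. Defects in many of them cause inherited mitochondrial disease.

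The stretches of promoter that hold this element are shown first, as the sequence through which ATF4 is known to act on such genes. RefSeq promoters, from 250 bases before to 50 after a transcription start (GRCh38.p14), were matched for 30 of the 35 genes, 16 cytosolic and 14 mitochondrial. The letters TTGCATCA were searched on both strands. They occurred in 6 of the 16 cytosolic genes, AARS1, CARS1, IARS1, MARS1, NARS1 and TARS1, and in 0 of the 14 mitochondrial ones, against 1.08% of 27305 genes with a promoter. A looser form, TGATGNAAN, which overlaps every one of those matches, added GARS1 among the cytosolic genes and YARS2 among the mitochondrial ones, and occurred in 4.45% of all genes. Capitals mark the matched letters. The stretches of TARS1, CARS1, IARS1, MARS1, NARS1 and GARS1 take in the 50 bases before the start and 30 bases from the start onward, and that of AARS1 begins 223 bases before its start. The GARS1 stretch holds the looser form alone. No promoter was matched for AARS2, LARS1, VARS1, VARS2 and YARS1.
AARS1, chr16:70289650-70289729, minus strand: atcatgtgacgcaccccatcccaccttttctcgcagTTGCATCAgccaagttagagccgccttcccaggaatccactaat
CARS1, chr11:3057394-3057473, minus strand: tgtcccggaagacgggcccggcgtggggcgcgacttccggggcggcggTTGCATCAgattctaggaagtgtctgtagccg
IARS1, chr9:92293668-92293747, minus strand: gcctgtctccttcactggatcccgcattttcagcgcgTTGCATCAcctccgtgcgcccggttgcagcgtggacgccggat
MARS1, chr12:57488018-57488097, plus strand: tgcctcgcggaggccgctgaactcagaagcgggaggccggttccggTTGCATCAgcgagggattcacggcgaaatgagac
TARS1, chr5:33440915-33440994, plus strand: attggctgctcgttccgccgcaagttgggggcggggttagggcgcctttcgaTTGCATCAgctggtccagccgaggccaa
NARS1, chr18:57621807-57621886, minus strand: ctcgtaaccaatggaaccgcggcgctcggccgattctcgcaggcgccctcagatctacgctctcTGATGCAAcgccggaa
GARS1, chr7:30594828-30594907, plus strand: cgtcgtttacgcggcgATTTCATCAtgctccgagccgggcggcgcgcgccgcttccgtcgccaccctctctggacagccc

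In CARS1, IARS1, MARS1, NARS1 and TARS1 the match began between 13 bases before and 14 bases after the start, and in AARS1 it began 187 bases before it. NARS1 carries the element in the opposite orientation to the other 5. The difference between the controls is described below. Every cytosolic gene with either form had siNT above siL2, by 0.19 (NARS1) to 0.61 (AARS1) on the log2 scale. Of the cytosolic genes with a promoter and no match, EPRS1, KARS1, SARS1 and WARS1 had siNT above siL2. FARSA, FARSB, HARS1, QARS1 and RARS1 had it below. The difference was still larger in some genes without the element than in some with it. The part of the element was not tested. KARS1 and SARS1, with siNT above siL2 by 0.62 and 0.52 on the log2 scale, held neither form in their promoters, while the carriers NARS1 and IARS1 differed by 0.19 and 0.22 and YARS2, with the looser form, by -0.09. A match describes letters in this window and not a bound site. Genes without one may carry other forms of the element or carry it elsewhere.

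**Figure D1:**
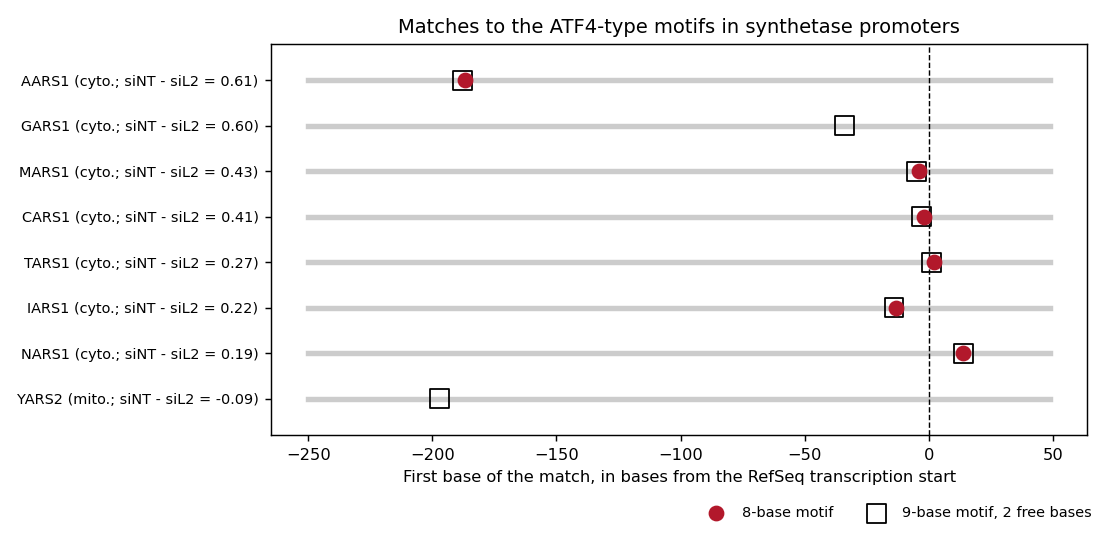
Position of each match along the promoter window (grey line, 250 bases before to 50 after the RefSeq start, which is the dashed line at 0), in bases. Filled circles are the 8-base element and open squares the looser 9-base form; each label gives the siNT minus siL2 difference in log2 CPM. Apart from AARS1 and YARS2, every match lies within 34 bases of the start.

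Of the 19 cytosolic genes 5 were called lower in the USP17 siRNA libraries than in the controls, and the differences were small. Of the 19, 18 had a negative fold change, HARS1 (0.04) being the exception, with a median log2 fold change of -0.29 and a range of -0.63 to 0.04, against a median of 0.01 over the 16341 genes tested. Fold changes set the 3 USP17 siRNA libraries over the 2 controls. In edgeR's quasi-likelihood test across all of those genes the calls were WARS1, GARS1, MARS1, TARS1 and EPRS1 lower and 0 higher, where 5.82% of all genes were called lower and 4.64% higher. A call is a Benjamini-Hochberg adjusted p under 0.05 over all genes. No cytosolic gene was higher at an unadjusted p under 0.05 or by DESeq2, which called 9 of them lower. Over all genes DESeq2 called 2242 in either direction, against 1710 by edgeR. The share of all genes at an unadjusted p under 0.05 was not counted. All 3 USP17 siRNA libraries lay below both controls in 15 of the 19 genes (22.6% of all genes) and above both in 0 (23.3%). All 35 genes passed the filter on low counts. Since this comparison was used in choosing the family, nothing is read from these counts.

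The mitochondrial set was mixed. Its median log2 fold change was -0.18, with a range of -0.64 to 0.32, and 11 of 16 genes had a negative one. The lowest value is that of VARS2, on 14 to 36 reads, and RSEM counts gave -0.33 for it and 0.04 for SARS2, which is also among the 11. Without these 2 genes the median was -0.18, the range -0.63 to 0.32, and 9 of 14 were negative. NARS2, WARS2 and FARS2 were called lower (5.82% of all genes) and CARS2 was called higher (4.64%). In 8 genes all USP17 siRNA libraries lay below both controls (22.6% of all genes). In 4, CARS2, AARS2, PARS2 and RARS2, they lay above both, near the 23.3% of all genes. PARS2 exceeded siL2 by only 0.01 on the log2 scale in sino4 and in siSMPLT. RARS2 exceeded siNT by only 0.01 in siSMPLT. Among the genes below both controls, LARS2 in sino4 differed from siNT by only -0.002. Each of the 9 calls in the family rests on few libraries. Without sino4, 0 of the 9 were called (130 calls over all genes). Without siIDT only WARS1 and WARS2 were (349 calls), and without siSMPLT only WARS1, WARS2 and NARS2 (1041 calls). Without siNT the log2 fold changes of GARS1, MARS1 and EPRS1 were -0.23, -0.21 and -0.22. Those of FARSA, FARSB, TARS2 and EARS2 were -0.29, -0.25, -0.29 and -0.27. Without siL2 the median log2 fold change over the cytosolic genes was -0.40.

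**Figure D2:**
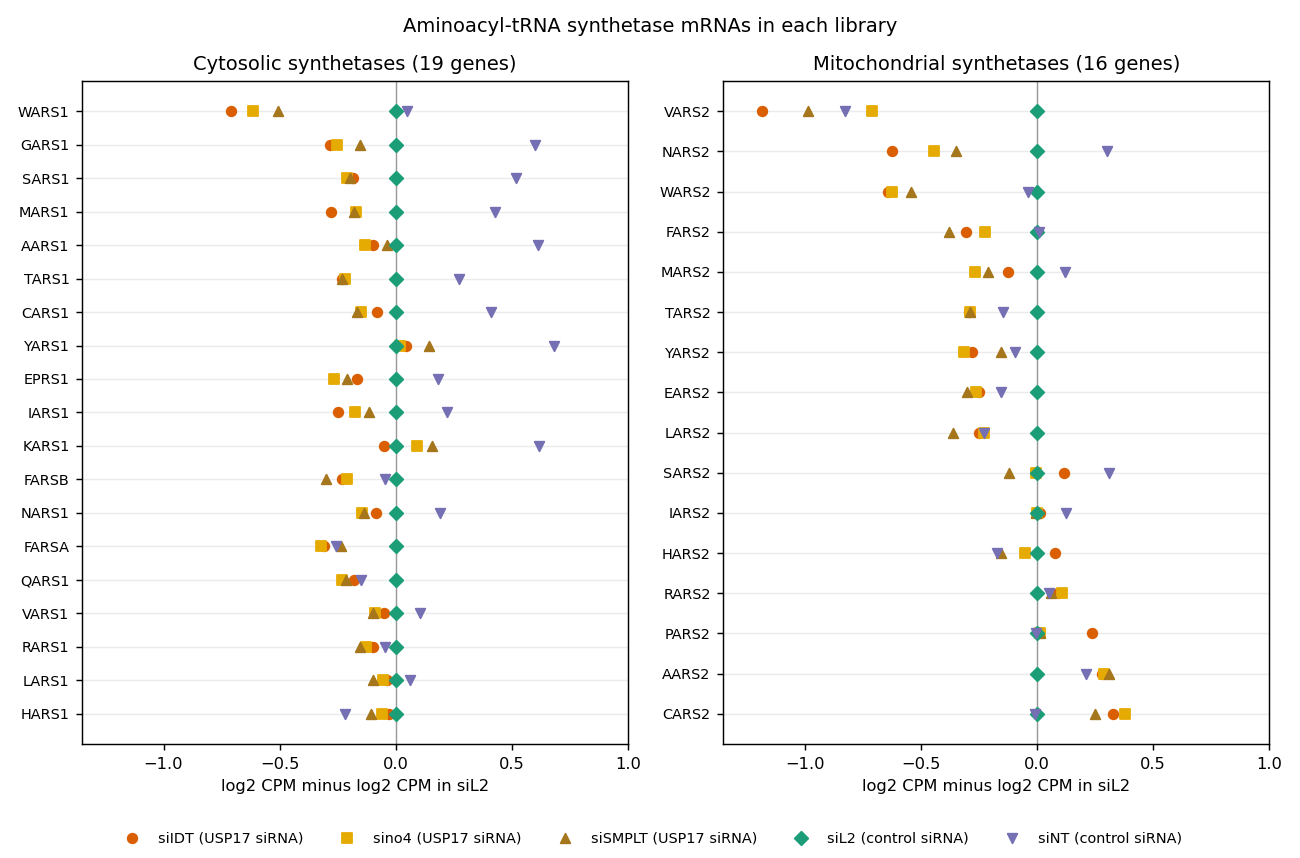
Log2 CPM (reads scaled to a common library size) of each gene in each library, minus its value in siL2, for the cytosolic (left) and mitochondrial (right) synthetases, ordered by fitted fold change with the most negative at the top. In GARS1, SARS1, AARS1, YARS1 and KARS1 siNT stands alone at 0.52 to 0.68 above siL2, whereas in WARS1, WARS2, FARS2 and CARS2 both controls lie together and apart from all 3 USP17 siRNA libraries.

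The size of the difference in the cytosolic set depended on the control. In CPM, reads scaled to a common library size by TMM, AARS1, the alanyl-tRNA synthetase, measured 314, 306 and 327 in siIDT, sino4 and siSMPLT, against 336 in siL2 and 514 in siNT. GARS1, which charges glycine in both compartments, measured 202, 206 and 221 CPM, against 246 CPM in siL2 and 372 CPM in siNT. SARS1, the seryl-tRNA synthetase, measured 222, 218 and 219.7 CPM, against 252 CPM in siL2 and 361 CPM in siNT. In all 3 genes siNT was the high library, siL2 lay nearer to the USP17 siRNA libraries than to siNT, and the groups did not overlap. Their log2 fold changes were -0.43 ± 0.15 for AARS1, -0.56 ± 0.15 for GARS1 and -0.48 ± 0.13 for SARS1 (SE from the fit, 3 against 2 libraries). Of these GARS1 was called.

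MARS1, the methionyl-tRNA synthetase of the multi-synthetase complex, measured 177, 190.4 and 189 CPM, against 215 CPM in siL2 and 289 CPM in siNT, a log2 fold change of -0.44 ± 0.12 (SE). TARS1, the threonyl-tRNA synthetase, measured 250.4, 252 and 250.3 CPM, against 294 CPM in siL2 and 355 CPM in siNT, a log2 fold change of -0.37 ± 0.09 (SE). Both were lower in every USP17 siRNA library than in either control, and TARS1 differed by less than 3 CPM among the USP17 siRNA libraries. EPRS1, a fused enzyme for glutamate and proline that also sits in the complex, measured 475, 444 and 462 CPM, against 535 CPM in siL2 and 606 CPM in siNT, and its log2 fold change was -0.31 ± 0.07 (SE).

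YARS1 and KARS1 overlapped between the groups and turned sign with the control. YARS1, the tyrosyl-tRNA synthetase, measured 223, 219 and 239 CPM in the USP17 siRNA libraries, against 216 CPM in siL2 and 347 CPM in siNT. KARS1, which charges lysine in both compartments, measured 304, 335 and 351 CPM, against 315 CPM in siL2 and 482 CPM in siNT. Against siNT the mean of the USP17 siRNA libraries was lower by 0.61 (YARS1) and 0.55 (KARS1) on the log2 CPM scale; against siL2 it was higher by 0.07 in each. With siNT left out of the fit their log2 fold changes were 0.07 for YARS1 and 0.07 for KARS1, and neither was called.

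Over the whole family the same split appeared between genes. Of the cytosolic genes, 12 are commonly described as ATF4-responsive: AARS1, CARS1, EPRS1, GARS1, IARS1, LARS1, MARS1, NARS1, SARS1, TARS1, WARS1 and YARS1. This grouping does not come from the data and was made with earlier results of these data known. The counts by group are therefore a description. In all 12 the siNT library was the highest of the 5, and the median difference of siNT from siL2 was 0.34 on the log2 scale. In the other 7 cytosolic genes, FARSA, FARSB, HARS1, KARS1, QARS1, RARS1 and VARS1, siNT was the highest in 2 (KARS1 and VARS1) and the median difference was -0.05. In the mitochondrial genes siNT was the highest in 5 of 16 and the median difference was -0.01. Over all genes tested siNT was the highest library in 25.2%. At a threshold of 1.5-fold, siNT exceeded siL2 in 4 of 19 cytosolic genes, YARS1 (1.60-fold), KARS1 (1.53), AARS1 (1.53) and GARS1 (1.51), and in 0 of 16 mitochondrial genes, against 6.44% of all genes. These are differences between 2 single libraries and allow no test.

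Set against siNT, the group described as ATF4-responsive had median differences of -0.57, -0.58 and -0.55 in siIDT, sino4 and siSMPLT. Set against siL2, the same medians were -0.18, -0.17 and -0.16. In the mitochondrial genes the order of the controls was the other way round, with medians of -0.13, -0.11 and -0.14 against siNT and of -0.19, -0.23 and -0.18 against siL2. The medians over all genes tested lay between 0.00 and 0.01 in these 6 pairs. Comparisons against the same control share that library.

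**Figure D3:**
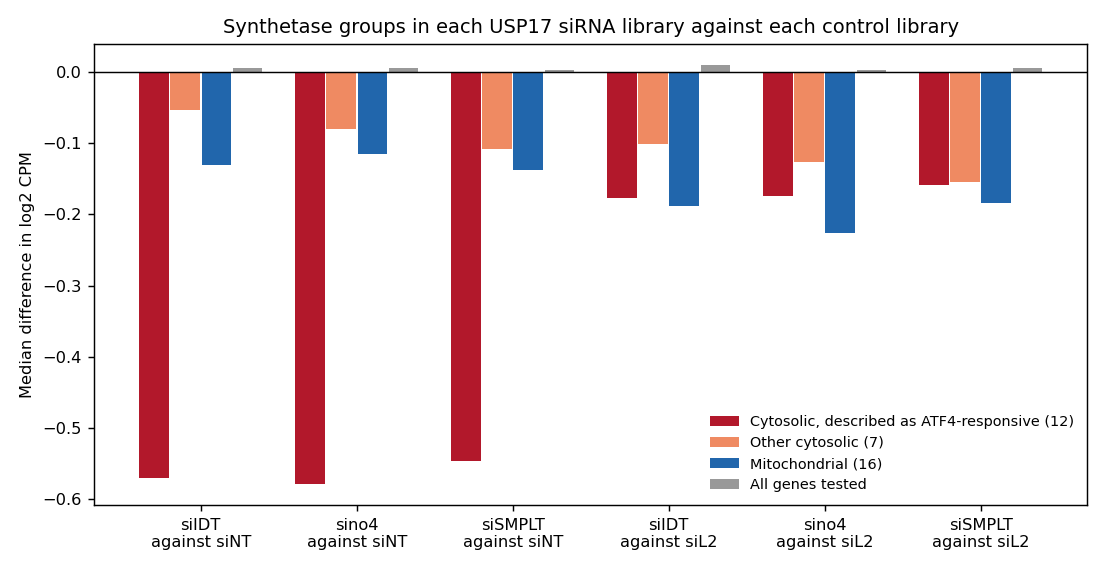
Median difference in log2 CPM of each USP17 siRNA library from siNT (left 3 clusters) and from siL2 (right 3 clusters), for 3 groups of synthetases and for all genes tested; each bar is a median over genes of a difference between 2 libraries, so no error is drawn. The group described as ATF4-responsive, drawn up with earlier results known, reaches -0.55 to -0.58 against siNT and -0.16 to -0.18 against siL2. The mitochondrial group stays between -0.11 and -0.23.

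Counts at 1.5-fold followed the medians. Against siNT, 7, 6 and 4 of the 19 cytosolic genes were at least 1.5-fold lower in siIDT, sino4 and siSMPLT, where 8.87%, 8.36% and 5.64% of all genes were. Against siL2 the counts were 1, 1 and 0, where 7.91%, 7.26% and 5.34% of all genes were, and the gene was WARS1 in siIDT and sino4. Of the 16 mitochondrial genes, 2, 1 and 1 were that much lower against siNT and 3, 2 and 1 against siL2. VARS2 is in each of the counts against siL2, which were 2, 1 and 0 without it. The multi-synthetase complex members in the list were EPRS1, IARS1, KARS1, LARS1, MARS1, QARS1 and RARS1. They and the 12 cytosolic genes outside the complex had median log2 fold changes of -0.27 and -0.33. In these groups 2 and 3 genes were called lower by edgeR, where 5.82% of all genes were.

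WARS1 and WARS2, the cytosolic and mitochondrial tryptophanyl-tRNA synthetases, were lower by similar amounts against either control. WARS1, which interferon gamma is known to induce, measured 60.8, 64.9 and 69.9 CPM in siIDT, sino4 and siSMPLT, against 99.4 CPM in siL2 and 103 CPM in siNT. WARS2 measured 57.7, 58.5 and 61.9 CPM, against 90.1 CPM in siL2 and 87.7 CPM in siNT. In both genes all USP17 siRNA libraries lay well below both controls, which were within 1.03-fold (WARS1) and 0.97-fold (WARS2) of each other as siNT over siL2. The log2 fold changes were -0.63 ± 0.08 for WARS1 and -0.58 ± 0.07 for WARS2 (SE), or 0.645 and 0.668 times the control level. Both were also called with siL2 or siNT left out.

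NARS2, the mitochondrial asparaginyl-tRNA synthetase, measured 31.1, 35.3 and 37.8 CPM, against 48.1 CPM in siL2 and 59.2 CPM in siNT, a log2 fold change of -0.63 ± 0.12 (SE). Its cytosolic counterpart NARS1 measured 155, 149 and 150.0 CPM, against 165 CPM in siL2 and 188 CPM in siNT (-0.22 ± 0.08, not called). FARS2, the mitochondrial phenylalanyl-tRNA synthetase, measured 125, 132 and 118 CPM, against 154 CPM in siL2 and 154 CPM in siNT (-0.31 ± 0.07). The 2 subunits of the cytosolic phenylalanine enzyme, FARSA and FARSB, were not called, with log2 fold changes of -0.17 and -0.22. In FARSA the low library among the controls was siNT, at 73.0 CPM against 87.1 CPM in siL2, so that its groups overlapped.

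CARS2, the mitochondrial cysteinyl-tRNA synthetase, was the 1 member called higher. It measured 82.4, 85.4 and 78.1 CPM in siIDT, sino4 and siSMPLT, against 65.6 CPM in siL2 and 65.3 CPM in siNT, a log2 fold change of 0.32 ± 0.08 (SE). The controls were level and every USP17 siRNA library lay above them. CARS1, its cytosolic counterpart, had the opposite sign (-0.35 ± 0.12, not called), at 72.3, 69.0 and 68.2 CPM against 76.5 CPM in siL2 and 102 CPM in siNT. AARS2, the mitochondrial alanyl-tRNA synthetase, measured 29.6, 29.8 and 30.2 CPM, against 24.4 CPM in siL2 and 28.2 CPM in siNT, and was not called.

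**Figure D4:**
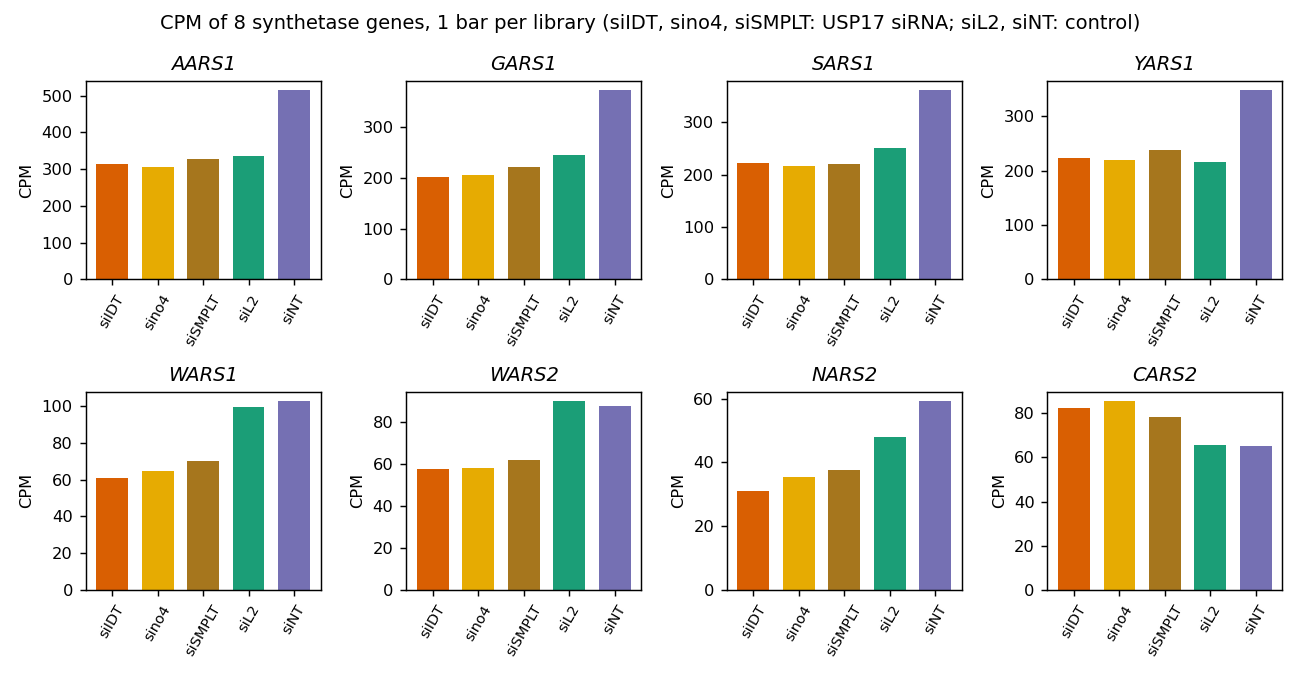
CPM of 8 synthetase genes, 1 bar per library, on axes that start at 0. In AARS1, GARS1, SARS1 and YARS1 siNT alone is high, between 347 and 514 CPM; in WARS1, WARS2 and NARS2 both controls exceed all 3 USP17 siRNA libraries, and in CARS2 both lie below them.

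The starts of WARS1, WARS2 and CARS2, whose difference from the controls did not hinge on which control was used, are shown for comparison with the stretches above, from 50 bases before the start to 30 bases from it (GRCh38.p14). Neither element was found in the whole promoter window of these 3 genes, so no letters are in capitals. Only 1.08% of all genes held TTGCATCA and 4.45% the looser form, so nothing is read from its absence here. The 3 genes were picked by their values in these data. FARS2, whose controls were also level, is not shown.
WARS1, chr14:100376298-100376377, minus strand: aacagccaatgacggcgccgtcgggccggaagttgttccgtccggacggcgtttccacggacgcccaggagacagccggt
WARS2, chr1:119140643-119140722, minus strand: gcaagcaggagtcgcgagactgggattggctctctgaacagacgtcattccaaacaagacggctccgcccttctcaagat
CARS2, chr13:110706486-110706565, minus strand: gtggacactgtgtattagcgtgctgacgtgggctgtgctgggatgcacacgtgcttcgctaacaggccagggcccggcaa

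HARS1 and HARS2, the cytosolic and mitochondrial histidyl-tRNA synthetases, lie head to head on chromosome 5, and their RefSeq starts are separated by the 84 bases below, read on the strand of HARS2.
Between the HARS1 and HARS2 starts, chr5:140691371-140691454, plus strand: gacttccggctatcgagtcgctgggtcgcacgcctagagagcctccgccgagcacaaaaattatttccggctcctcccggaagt

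This pair had the fold changes nearest to 0, HARS1 among the cytosolic genes and HARS2 among the mitochondrial ones. HARS1 measured 70.4, 68.9 and 66.7 CPM, against 71.8 CPM in siL2 and 61.7 CPM in siNT (0.04 ± 0.09). HARS2 measured 38.1, 34.8 and 32.5 CPM, against 36.1 CPM in siL2 and 32.0 CPM in siNT (0.04 ± 0.10). In both genes siNT was the lowest library and the groups overlapped. HARS1 and HARS2 encode similar proteins, and the share of reads lost between them as multi-mapped was not measured. In the annotation used for overlaps the genes share 437 bases on opposite strands. HARS2 also shares 639 bases with ZMAT2 on the same strand. The part of these overlaps in the counts was not tested.

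The remaining cytosolic genes were not called. IARS1 (isoleucine) had a log2 fold change of -0.29, QARS1 (glutamine) of -0.13, VARS1 (valine) of -0.13, RARS1 (arginine) of -0.10 and LARS1 (leucine, also known as a leucine sensor for mTORC1) of -0.10. VARS1 measured 178, 174 and 173 CPM, against 185 CPM in siL2 and 199 CPM in siNT. LARS1 measured 342, 339 and 329 CPM, against 352 CPM in siL2 and 367 CPM in siNT, a difference of siNT from siL2 of 0.06 on the log2 scale. Among mitochondrial genes MARS2 (-0.26), TARS2 (-0.22), YARS2 (-0.20), EARS2 (-0.20) and LARS2 (-0.17) were not called. In each all USP17 siRNA libraries lay below both controls, as in 22.6% of all genes. In LARS2 the difference of sino4 from siNT was only -0.002 on the log2 scale. MARS2, the methionine enzyme, measured 41.0, 37.2 and 38.6 CPM, against 44.7 CPM in siL2 and 48.7 CPM in siNT. TARS2, the threonine enzyme, measured 459, 461 and 461 CPM, against 563 CPM in siL2 and 508 CPM in siNT, so that here siL2 was the high library. IARS2 (-0.06), RARS2 (0.06) and PARS2 (0.09) stood near 0. In PARS2, the prolyl enzyme, siIDT alone was high, at 20.4 CPM, with 17.3 to 17.4 CPM in the other 4 libraries.

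The counts of VARS2 and SARS2 used here lay far below those of RSEM, and their fold changes are uncertain. VARS2 (valine) had 14, 20 and 16 reads in siIDT, sino4 and siSMPLT, against 36 and 20 in siL2 and siNT, although RSEM assigned it 817 to 921 reads in the USP17 siRNA libraries and 1245 and 1087 in siL2 and siNT. SARS2 (serine) had 117, 106 and 97 reads in siIDT, sino4 and siSMPLT, against 113 in siL2 and 145 in siNT, where RSEM assigned 606 to 671 reads in the USP17 siRNA libraries, 576 in siL2 and 757 in siNT. In the annotation VARS2 shares 5865 bases with GTF2H4 and SARS2 shares 15493 bases with AC011455.2, both on the same strand. How far these overlaps account for the gap was not tested. In all other members the counts came to 94.2% to 118% of the RSEM ones. By RSEM counts the log2 fold change of SARS2 was 0.04.

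Across the 15 pairs that share an amino acid, the cytosolic gene had the more negative fold change in 12 and the mitochondrial one in 3 (asparagine, leucine and valine, the last resting on VARS2). Without siNT the split was 9 and 6, with glutamate, threonine and tyrosine added to the 3, and over the other alternatives it ran from 11 and 4 to 13 and 2. EPRS1 serves in 2 of these pairs, with EARS2 and PARS2. The siNT library exceeded siL2 by more in the cytosolic gene in 12 pairs. The pairs share their libraries and are not independent.

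Levels per transcript length were compared by the authors' RSEM TPM. The cytosolic genes summed to 2237 to 2320 TPM in the USP17 siRNA libraries, against 2455 TPM in siL2 and 3084 TPM in siNT, and the mitochondrial genes to 956 to 972 TPM, against 1078 TPM in siL2 and 1049 TPM in siNT. The ratio of the 2 sums was 2.33, 2.33 and 2.43 in siIDT, sino4 and siSMPLT, against 2.28 in siL2 and 2.94 in siNT, so that siNT alone stood apart. TPM sums are shares of a fixed total.

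Among cytosolic genes the order of levels, as medians of the 5 libraries, ran from KARS1 (255 TPM), SARS1 (216 TPM), EPRS1 (175 TPM) and IARS1 (170 TPM) down to HARS1 (53.5 TPM), CARS1 (46.4 TPM) and FARSB (40.0 TPM). From KARS1 down to LARS1 all neighbours in this order had overlapping ranges over the 5 libraries, while LARS1 lay apart from NARS1, QARS1 from VARS1 and RARS1 from FARSA. Among mitochondrial genes TARS2 was the highest at 286 TPM, with a range of 278 to 345 TPM that overlapped no other mitochondrial gene, followed by IARS2 at 139 TPM and FARS2 at 103 TPM. From RARS2 down to SARS2 neighbours overlapped. PARS2 (10.8 TPM) and AARS2 (8.63 TPM) were the lowest, each with a range apart from its neighbours. The cytosolic gene had the higher level in 13 of 15 pairs, up to 16.4 times for alanine. The exceptions were threonine, with TARS1 at 157 TPM and TARS2 at 286 TPM, and cysteine, with CARS1 at 46.4 TPM and CARS2 at 78.6 TPM.

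**Figure D5:**
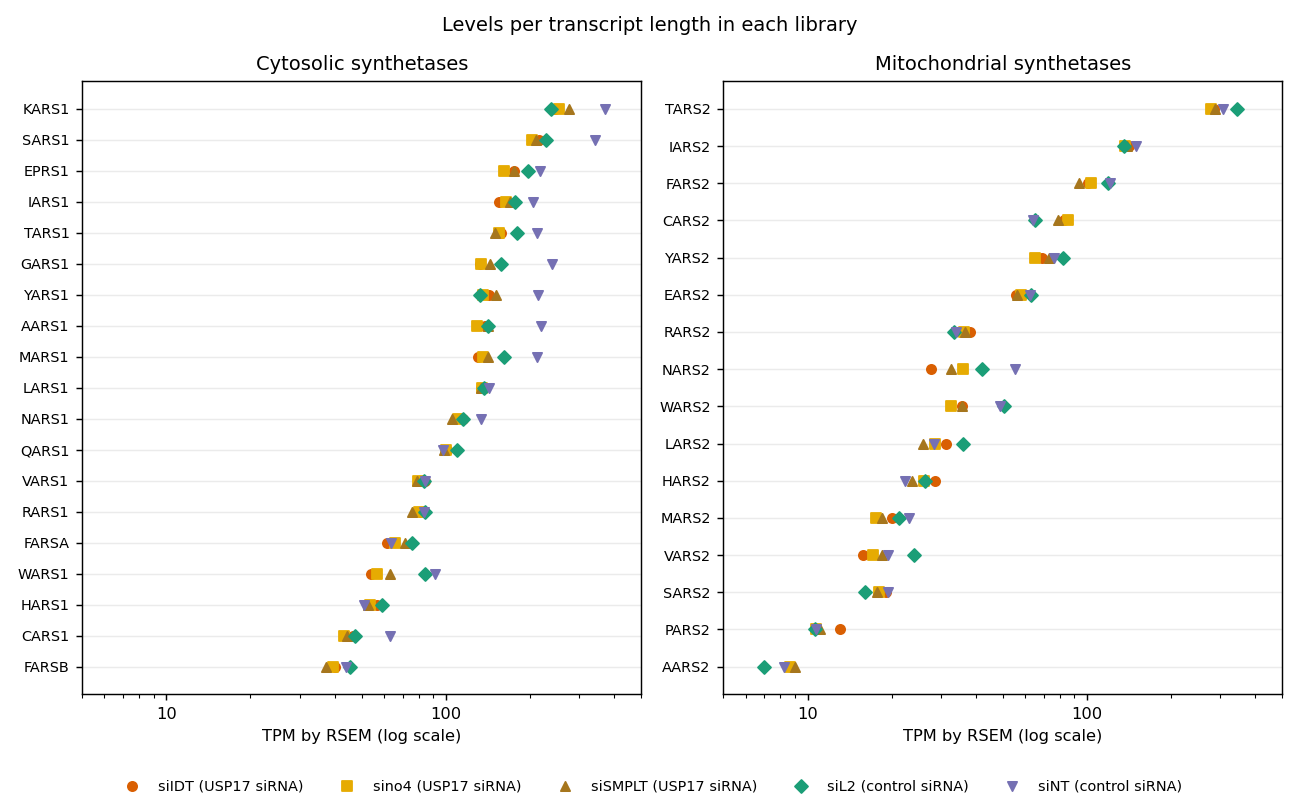
TPM of each gene in each library on a log scale, cytosolic genes left and mitochondrial genes right, ordered by the median of the 5 libraries. Cytosolic medians span 40.0 to 255 TPM and mitochondrial ones 8.63 to 286 TPM; siNT lies to the right of the other libraries in every cytosolic gene from KARS1 down to NARS1.

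Genes of the same pathways were taken from lists that leave out the synthetases. For comparison, edgeR called 5.82% of all genes lower and 4.64% higher, and siNT was the highest library in 25.2%. DESeq2 called 2242 genes in either direction, against 1710 by edgeR. Of 28 other ATF4 targets 27 were tested, 9 were called lower and 0 higher by edgeR (17 and 0 by DESeq2), with a median log2 fold change of -0.59, and siNT was the highest library in 25. Their median difference was -0.85 from siNT and -0.19 from siL2. None was higher at an unadjusted p under 0.05. MTHFD2, a mitochondrial folate enzyme, had a log2 fold change of -0.79, ALDH18A1, of proline synthesis, of -0.45, and JDP2 of -1.69. ASNS, the asparagine synthetase and a standard ATF4 target, measured 1.07, 1.33 and 1.31 CPM, against 1.69 CPM in siL2 and 5.61 CPM in siNT, and was not called. PSAT1, of serine synthesis, measured 330.5, 332 and 312 CPM, against 305 CPM in siL2 and 581 CPM in siNT, with the single high library seen in AARS1 and YARS1. XPOT, which exports tRNAs from the nucleus, measured 627, 674 and 651 CPM, against 723 CPM in siL2 and 945 CPM in siNT. CHAC1, a glutathione-degrading enzyme, measured 1.19, 1.36 and 1.47 CPM, against 3.12 CPM in siL2 and 14.1 CPM in siNT, and was called lower.

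Of 10 amino acid transporters tested 4 were called lower (SLC7A1, SLC7A5, SLC3A2 and SLC1A5) and 0 higher by edgeR, against 3 lower and 0 higher by DESeq2, and 0 were higher at an unadjusted p under 0.05. The siNT library was the highest in all 10 (25.2% of all genes), and edgeR called 5.82% of all genes lower and 4.64% higher. Over all genes and both directions, DESeq2 made 2242 calls and edgeR 1710. SLC7A5, the light chain of the large neutral amino acid transporter, measured 199.6, 233 and 218 CPM, against 337 CPM in siL2 and 514 CPM in siNT. ATF4 mRNA itself measured 206, 227 and 246 CPM, against 264 CPM in siL2 and 398 CPM in siNT, with a log2 fold change of -0.55 ± 0.15 (SE) that was not called. ATF4 is controlled largely by translation, which mRNA levels do not show. Of 8 genes in the list of eIF2alpha kinases, their cofactors and ATF4, edgeR called 0. In that list 1 gene was lower at an unadjusted p under 0.05 and 1 was called lower by DESeq2, which was ATF4.

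Genes for the 3 scaffold proteins of the multi-synthetase complex were not called by edgeR or DESeq2, and 1 was lower at an unadjusted p under 0.05. EEF1E1 had a log2 fold change of -0.24, AIMP2 of -0.16 and AIMP1 of 0.14. All USP17 siRNA libraries lay below both controls in EEF1E1 and AIMP2 (22.6% of all genes) and above both in AIMP1 (23.3%). Of 19 mitochondrial translation factors and tRNA enzymes 2 were called lower, TUFM (an elongation factor, -0.25) and QRSL1 (a subunit of the enzyme that makes mitochondrial glutaminyl-tRNA, -0.30), and 0 higher, with a median of -0.10 and 0 higher at an unadjusted p under 0.05 or by DESeq2. Of all genes, 5.82% were called lower and 4.64% higher, so the 2 calls in this list are not read as a result. The siNT library was the highest in 2 of these 19 (25.2% of all genes). Of the cytosolic elongation factors 0 of 5 tested were called by edgeR or DESeq2, and 1 was lower and 1 higher at an unadjusted p under 0.05.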

How the data were processed

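Poly(A) RNA of 5 COLO 320DM libraries was analysed. The submitters' processing notes name bcl2fastq 2.20, STAR 2.7.1a and RSEM 1.3.2 as tools and GRCh38 as the build. No source used here gives the annotation release or the strand setting of the counting. The deposited count tables hold whole-number reads per gene, and own-strand reads (18.7 to 19.9 times those of the opposite strand) were used. The deposited RSEM tables hold expected counts, rounded here to whole numbers, and TPM computed by the authors. Rows that name no gene (22.8% to 24.4% of reads) were left out.

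Counts were fitted in R 4.3.3 with edgeR 4.0.16 on all genes kept by filterByExpr (minimum count 10, total 15), scaled by TMM, with its quasi-likelihood F test and Benjamini-Hochberg adjustment. A call is an adjusted p under 0.05 and a fold change is USP17 siRNA over control siRNA. Each SE is the absolute log2 fold change divided by the square root of the F statistic of that test. It therefore draws on a spread estimated across genes and is not taken from the gene's own libraries alone. The test was tried on simulated counts with planted changes. Pair differences are log2 CPM with a prior count of 2 and have no test. Where a gene had 0 reads, its level could be as high as 3 reads (0.0827 to 0.0946 CPM), counting error only.

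Members and lists were chosen with earlier results of these data known. Named companion genes are up to 3 per list with the smallest p and 9 fixed names. SLC1A5 and DDIT3 were named after their values were seen. Per-library values are given for the 6 cytosolic and 3 mitochondrial genes with the largest absolute fold change, their counterparts, and others chosen after their values were seen. Symbols were found for 60437 of 60651 identifiers, and overlaps of genes came from GENCODE 29 (GRCh38). Promoter sequences are RefSeq's. Alternatives were DESeq2 1.42.0 (size factors, Wald test), no filter, RSEM counts, the unstranded column, each library left out, and other prior counts and folds. Leaving out VARS2 and SARS2 was chosen after seeing the data.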

Additional observations from a re-analysis of the deposited data

How the results depend on the processing

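No paired analysis was possible because the labels give no replicate numbers that link libraries. Leaving out 1 library gave 130 to 2633 called genes, 0 to 12 cytosolic genes called lower (12 without siL2, 4 without siNT), 0 to 5 mitochondrial genes called lower and 0 to 1 called higher. Over the fits without any 1 library the median log2 fold change of the cytosolic genes ranged from -0.18 (without siNT) to -0.40 (without siL2). That of the mitochondrial genes ranged from -0.128 (without siL2) to -0.226 (without siNT). With 1 control left, its spread was taken to equal that of the USP17 siRNA libraries. DESeq2's Wald test called 9 cytosolic genes lower (2242 calls over all genes), adding AARS1, CARS1, IARS1 and SARS1. RSEM counts called 3 (1559 calls over all genes), losing GARS1 and MARS1 and also FARS2. SARS1 was also called with DESeq2's size factors, without the filter and with the unstranded column, and FARS2 lost its call without the filter. At 2-fold, 0 cytosolic genes were lower in any of the 6 pairs or higher in siNT than in siL2. At a threshold midway between 1 and 1.5-fold, 11, 12 and 12 were lower in siIDT, sino4 and siSMPLT against siNT, 1 in siSMPLT against siL2, and 7 were higher in siNT than in siL2. Over the fits without 1 library the sign turned, among genes not called in the full fit, for HARS1 (-0.066 to 0.153), HARS2 (-0.041 to 0.134), KARS1 (-0.548 to 0.068), YARS1 (-0.614 to 0.068) and IARS2 (-0.123 to 0.00075), in each without siNT, and for HARS2 also without siIDT (-0.018). It turned with RSEM counts for SARS2 (0.039). The cause was not tested. VARS2 had the fewest counted reads among the members, 14 to 36, although RSEM assigned it 817 to 1245. The reason for that gap was not tested.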

Other observations

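Reads on the strand opposite to MARS1 numbered 140, 142 and 152 in siIDT, sino4 and siSMPLT, against 177 in siL2 and 392 in siNT. The annotation places the end of DDIT3, a stress-induced transcription factor of the ATF4 programme, on that strand, with 982 bases shared (chromosome 12 from 57516588 to 57517569, GRCh38). DDIT3 itself measured 11.6, 11.3 and 13.2 CPM in the USP17 siRNA libraries, against 13.0 CPM in siL2 and 30.7 CPM in siNT. These values were chosen after the counts were known. ARHGAP9 also lies on that strand and shares 13370 bases. The MARS1 counts in the report are those of its own strand, where siNT was also the highest library.

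Among other ATF4 targets with a matched promoter, 3 of 21 held TTGCATCA (14.3%), against 1.08% of all genes with a promoter. So did 2 of 9 amino acid transporters (22.2%) and 0 of 17 mitochondrial translation factors and tRNA enzymes. The looser form TGATGNAAN occurred in 5 of the 21 (23.8%), 5 of the 9 (55.6%) and 0 of the 17, against 4.45% of all genes.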
